A study of Homo sapiens with 42 samples.

Results

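The last S-phase fraction, S6, was set against G1 in chromatin contact libraries of a fountain-like structure on chromosome 9, to ask which contacts stood at their G1 level at the end of S and which did not. The 12 libraries were chosen by their labels, 2 of S6 and 2 of G1 for each of 3 primers, out of 42 libraries in all. The cells were K562, a chronic myeloid leukaemia line grown in culture, with a FUCCI cell-cycle reporter knocked in at the AAVS1 locus in every group. Asynchronous cells were stained with a Hoechst dye, sorted on a flow cytometer into S6 and G1 (and S1 to S5), fixed with formaldehyde, cut with DpnII and ligated in place. Contacts of 1 genomic site per primer, its viewpoint, were then read from a biotinylated primer. The 6 groups were S6 and G1 of the Proximal primer, S6 and G1 of the Distal primer, both primers lying in the fountain, and S6 and G1 of the Outside primer, lying beyond it. The labels give no drug, no second genotype and no purity of the sorted fractions, and nothing in them says whether the 2 libraries of a group came from separate cultures. Each p-value below is therefore set against library-to-library spread that may be technical only.

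A fountain is a plume of contacts in a contact map that spreads away from a point on the diagonal, so that loci on opposite sides of that point meet more often. During S phase each stretch of DNA is copied by a pair of replication forks that leave an origin in opposite directions, and the 2 copies stay together as sister chromatids until mitosis. In G1 cells the chromosomes are not yet copied, whereas cells at the end of S have copied most of their DNA. K562 also carries rearranged and amplified copies of chromosome 9 material, so distances along the reference need not be distances in this genome.

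Each library listed 16350 positions in hg19, here called contacts, of which 36.2% to 68.1% repeated a position already listed. Contacts outside 20 kb of the viewpoint numbered 10534 to 14337 per library, and 6149 to 10724 of them lay within 2 Mb (local contacts). The equal totals hide the depth at which the libraries were sequenced. The position with the most contacts was taken as the viewpoint: 111624875 on chromosome 9 for Proximal, 111525048 for Distal and 111110106 for Outside. Libraries of 1 group differed with a chi-square per degree of freedom of 1.38 to 3.15 over 20 kb bins in the S6, S4 and G1 groups. Repeated positions can raise that value, so it does not tell whether the libraries are separate preparations. Annotation of hg19 was not used here, and no region below is assigned to a gene.

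By the end of S the contact profile was not that of G1. For all 3 primers, S6 libraries held more contacts 500 kb to 1 Mb away on the side of higher coordinates (the higher side), fewer contacts more than 10 Mb away on chromosome 9 and fewer contacts with other chromosomes. As a share of all contacts outside 20 kb, those 20 to 100 kb away did not pass the test on either side for any primer. Shares were percent of a library's contacts outside 20 kb, in 17 distance classes per primer. The 17 include 2 sums of other classes (within 2 Mb, and chromosome 9 beyond 2 Mb), so the counts of classes are not of separate contacts. Shares were tested with limma on the log2 scale and adjusted by Benjamini-Hochberg over 51 classes. S6 differed from G1 at an adjusted p below 0.05 in 10 of 17 Proximal classes (58.8%), 12 of 17 Distal classes (70.6%) and 12 of 17 Outside classes (70.6%). Of the 51 classes, 18 were higher in S6 (35.3%), 16 were lower (31.4%) and 17 did not pass. With 2 libraries against 2, an exact two-sided permutation test cannot give a p below 0.333, so these calls rest on the spread that limma estimates over the 14 libraries of a primer.

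**Figure D1:**
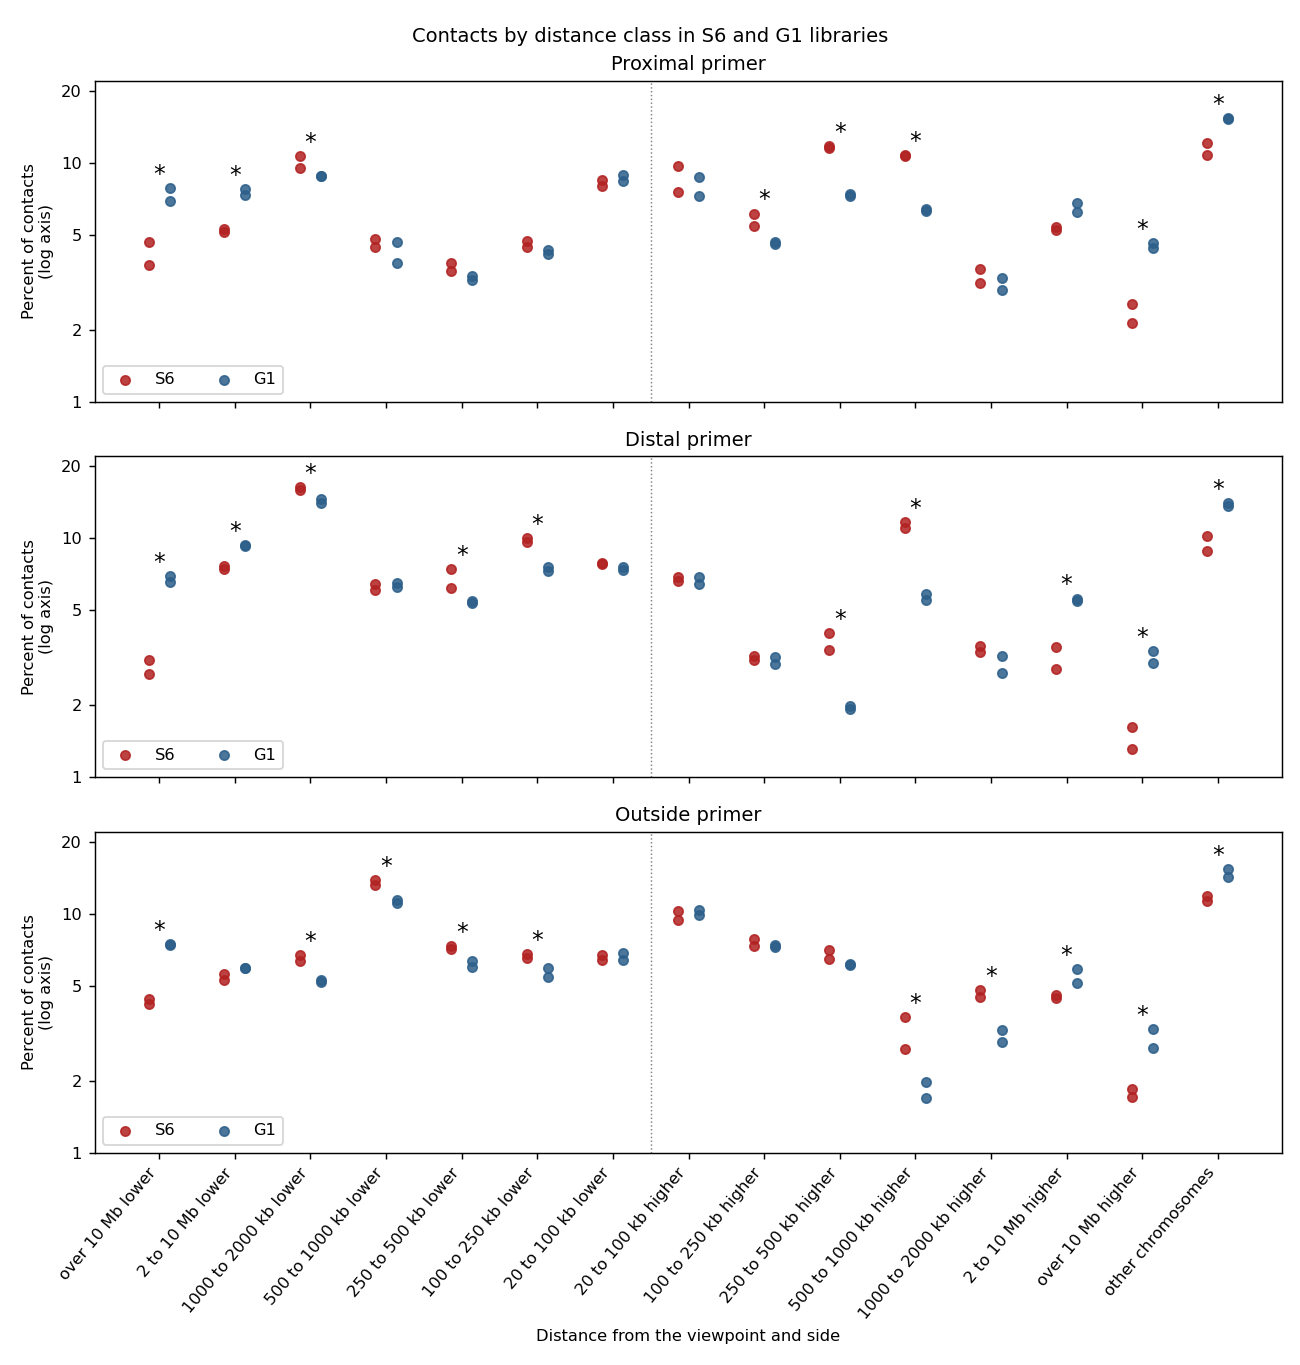
Percent of contacts in each distance class (vertical log axis) for S6 and G1 libraries of the 3 primers, 1 point per library, with classes ordered along chromosome 9 from lower to higher coordinates around the viewpoint (dotted line) and contacts with other chromosomes at the right. Stars mark an adjusted p below 0.05. S6 lies above G1 at 500 to 1000 kb on the higher side and below it beyond 10 Mb and on other chromosomes for every primer, while points at 20 to 100 kb overlap or lie close together.

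The gain on the higher side was seen from all 3 viewpoints. At 500 kb to 1 Mb the Distal primer had 11.7% and 11.03% of its contacts in S6, against 5.87% and 5.53% in G1. That is 2.00-fold (95% interval 1.80 to 2.21, limma adjusted p = 7.5e-07). The Proximal primer had 10.7% and 10.8% there in S6, against 6.30% and 6.42% in G1, or 1.69-fold (95% interval 1.53 to 1.87, limma adjusted p = 4.53e-06). The Outside primer had 3.68% and 2.71% in S6, against 1.97% and 1.69% in G1, or 1.73-fold (95% interval 1.46 to 2.06, limma adjusted p = 4.54e-05). Both S6 libraries lay above both G1 libraries for each primer, with the widest gap between S6 replicates in the Outside pair.

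Nearer in, the inner primers were also raised on the higher side between 250 and 500 kb. The Distal share was 4.02% and 3.42% in S6, against 1.98% and 1.93% in G1, or 1.90-fold (95% interval 1.64 to 2.20, limma adjusted p = 9.23e-06). The Proximal share was 11.6% and 11.8% in S6, against 7.39% and 7.30% in G1, or 1.59-fold (95% interval 1.47 to 1.72, limma adjusted p = 2.12e-06). For Outside the same class did not pass, at 1.104-fold (95% interval 0.979 to 1.24). Closer still, at 100 to 250 kb, the Proximal share was 6.14% and 5.44% in S6 and 4.67% and 4.57% in G1, 1.25-fold (limma adjusted p = 0.0064, but 0.0606 without S6 replicate 1). Distal and Outside did not pass in that class, with intervals of 0.927 to 1.14 and 0.923 to 1.16 for the fold of S6 over G1. Beyond 1 Mb on the higher side Outside alone passed, with 4.78% and 4.47% in S6 against 3.26% and 2.90% in G1 (1.502-fold, limma adjusted p = 7.22e-05). The folds there were 1.16 for Distal (95% interval 0.991 to 1.37) and 1.078 for Proximal (95% interval 0.946 to 1.23), and the difference between primers was not tested for classes.

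How far these gains had receded can be read beside S4, the mid-S fraction. The S4 and S6 changes share the same G1 libraries, so they are given side by side and S6 was tested against S4 directly, with 10 of 17 classes called for Proximal (58.8%), 10 of 17 for Distal (58.8%) and 12 of 17 for Outside (70.6%). In the Proximal higher-side class between 250 and 500 kb the S4 libraries held 16.5% and 15.9%, and S6 was lower than S4 by 0.47 in log2 units (limma adjusted p = 5.06e-05). The difference of S6 from G1 was 48.9% of that of S4 from G1. In the Distal one S6 was lower than S4 by 0.41 (limma adjusted p = 0.0034), and the S6 difference was 59.6% of the S4 one. At 500 kb to 1 Mb the Distal S4 libraries held 11.1% and 11.9%, and the S6 difference from G1 was 98.0% of the S4 one. The log2 change of S6 over S4 was -0.01 in that class (limma adjusted p = 0.83), so no decline from mid S was detected there. In the Proximal class of that distance S6 was lower than S4 by 0.19 (limma adjusted p = 0.0316), and in the Outside class by 0.28 (limma adjusted p = 0.0463). Both of these calls were lost without single libraries. The Proximal p became 0.0506 to 0.149 without any 1 of the 4 libraries, and the Outside p became 0.0786 or 0.149 without the first or the second S4 library and 0.571 without S6 replicate 2.

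**Figure D2:**
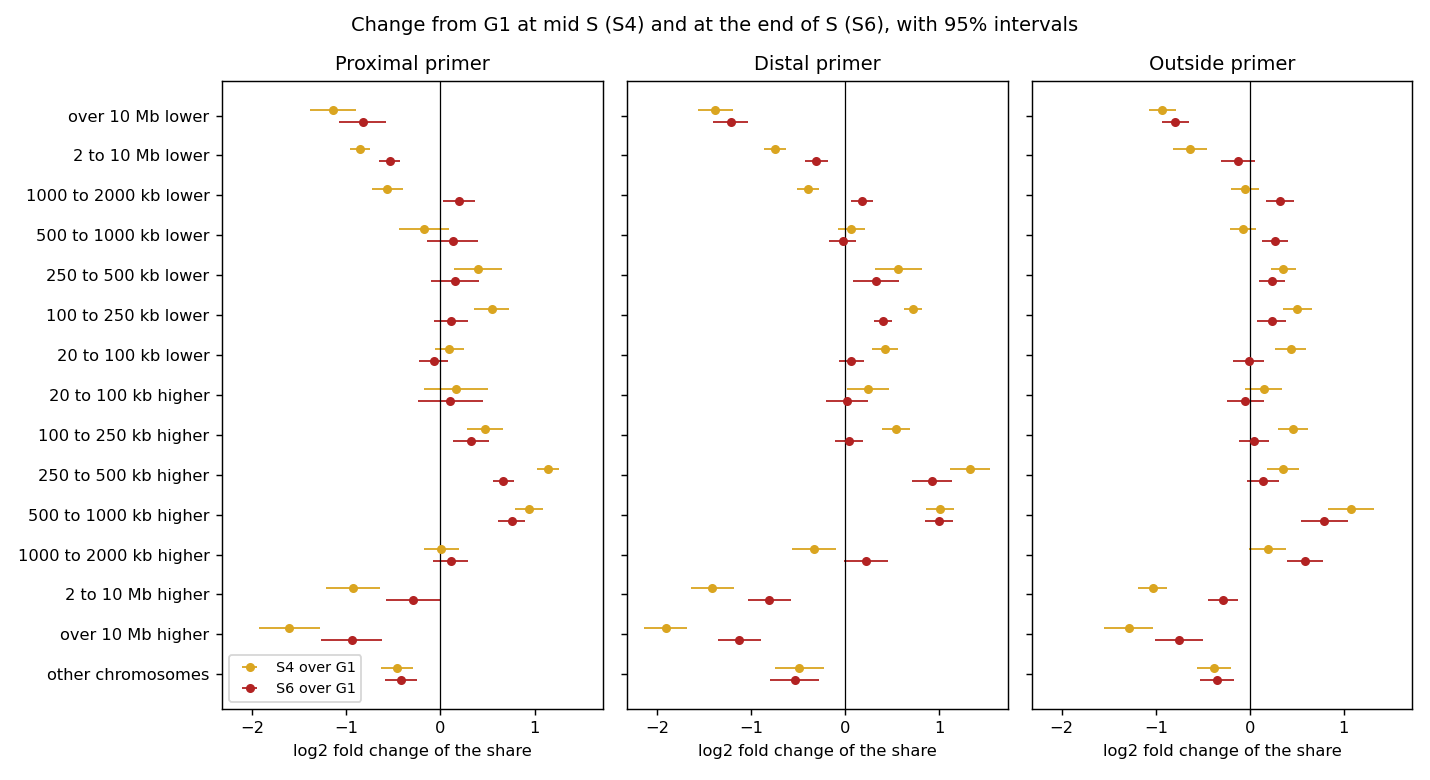
Log2 fold change of the share of contacts over G1 (horizontal axis) for S4 and S6 in each distance class of the 3 primers, with 95% intervals from limma. S6 sits nearer to 0 than S4 in most classes beyond 2 Mb and between 250 and 500 kb above the viewpoint, on top of S4 for the Distal class between 500 and 1000 kb there (log2 change of 1.00 for S6 and 1.01 for S4), and on the other side of 0 at 1000 to 2000 kb on the lower side for Proximal and Distal.

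As shares of all contacts outside 20 kb, the 6 classes at 20 to 100 kb and 3 of the 6 at 100 to 250 kb did not pass against G1, while the other 3 at 100 to 250 kb were above it (Proximal on the higher side, Distal and Outside on the lower side). Relative to local contacts most of the nearest classes were below G1, as given further on. On the side of lower coordinates (the lower side), the Distal share at 20 to 100 kb was 7.87% and 7.80% in S6, against 7.61% and 7.36% in G1. The fold was 1.05 (95% interval 0.953 to 1.15, limma adjusted p = 0.366), while S4 held 10.2% and 9.87% and S6 was lower than S4 by 0.36 in log2 units (limma adjusted p = 0.000409). For Outside the share at 20 to 100 kb on the lower side was 6.41% and 6.69% in S6, against 6.37% and 6.86% in G1, a fold of 0.991 (95% interval 0.884 to 1.11). S6 was lower than S4 there by 0.45 (limma adjusted p = 0.000238). Between 100 and 250 kb above its viewpoint the Distal primer held 3.23% and 3.10% in S6, against 3.18% and 2.98% in G1, with S6 lower than S4 by 0.50 (limma adjusted p = 8.8e-05). The Outside class of that distance and side had a fold of 1.03 over G1 and was lower than S4 by 0.41 (limma adjusted p = 0.000374). The S6 and G1 libraries overlapped in the Outside class at 20 to 100 kb and in the Distal class at 100 to 250 kb, and in the Distal class at 20 to 100 kb both S6 libraries lay just above G1. Between 100 and 250 kb on the lower side the Proximal fold was 1.079 (95% interval 0.951 to 1.23) and S6 was lower than S4 by 0.43 (limma adjusted p = 0.000908). The folds of the remaining Proximal classes on the lower side up to 1 Mb were 0.953, 1.11 and 1.09, and none passed.

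On the lower side, some classes of Distal and Outside were above G1 in S6. The Distal share at 100 to 250 kb was 9.64% and 10.0% in S6, against 7.26% and 7.59% in G1, or 1.32-fold (95% interval 1.24 to 1.41, limma adjusted p = 9.23e-06), and S6 was lower than S4 by 0.32 (limma adjusted p = 8.8e-05). Its share at 250 to 500 kb was 1.26-fold that of G1 (limma adjusted p = 0.0217). That call was lost without G1 replicate 1 (limma adjusted p = 0.0688), G1 replicate 2 (limma adjusted p = 0.0898) or S6 replicate 2 (limma adjusted p = 0.174). At 500 kb to 1 Mb the Distal fold was 0.982 (95% interval 0.89 to 1.08). For Outside all classes from 100 kb to 2 Mb on the lower side were higher in S6, by 1.17-fold, 1.18-fold, 1.204-fold and 1.25-fold from the nearest to the farthest (limma adjusted p from 0.00108 to 0.0101). The call at 100 to 250 kb was lost without G1 replicate 2 (limma adjusted p = 0.11) or S6 replicate 2 (limma adjusted p = 0.0697), and that at 250 to 500 kb without G1 replicate 1 (limma adjusted p = 0.0529).

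Between 1 and 2 Mb on the lower side S6 was above G1 for Distal and Proximal, where S4 had been below it. The Distal primer had 15.9% and 16.4% there in S6, against 14.6% and 14.02% in G1, or 1.13-fold (95% interval 1.04 to 1.22, limma adjusted p = 0.0122). The Proximal primer had 10.7% and 9.48% in S6, against 8.82% and 8.78% in G1, or 1.14-fold (95% interval 1.02 to 1.29, limma adjusted p = 0.0433). In both primers the S6 libraries lay above both G1 libraries. The call against G1 was lost for Distal without G1 replicate 2 (limma adjusted p = 0.0863) or S6 replicate 2 (limma adjusted p = 0.0722), and for Proximal without G1 replicate 1 (limma adjusted p = 0.11), G1 replicate 2 (limma adjusted p = 0.126) or S6 replicate 1 (limma adjusted p = 0.301). The rise over S4 was larger, by 0.57 in log2 units for Distal (limma adjusted p = 1.72e-05) and by 0.76 for Proximal (limma adjusted p = 3.31e-05) and passed without any 1 of the libraries. Relative to local contacts alone, described further on, both shares were below G1 and did not pass. This order of S6, G1 and S4 was not particular to those classes. Unscaled Distal counts at 1 to 2 Mb on the higher side were 504 and 463 in S6, 368 and 440 in G1, and 338 and 310 in S4. Unscaled Outside counts at 1 to 2 Mb on the lower side were 965 and 878 in S6, 711 and 727 in G1, and 693 and 706 in S4.

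**Figure D3:**
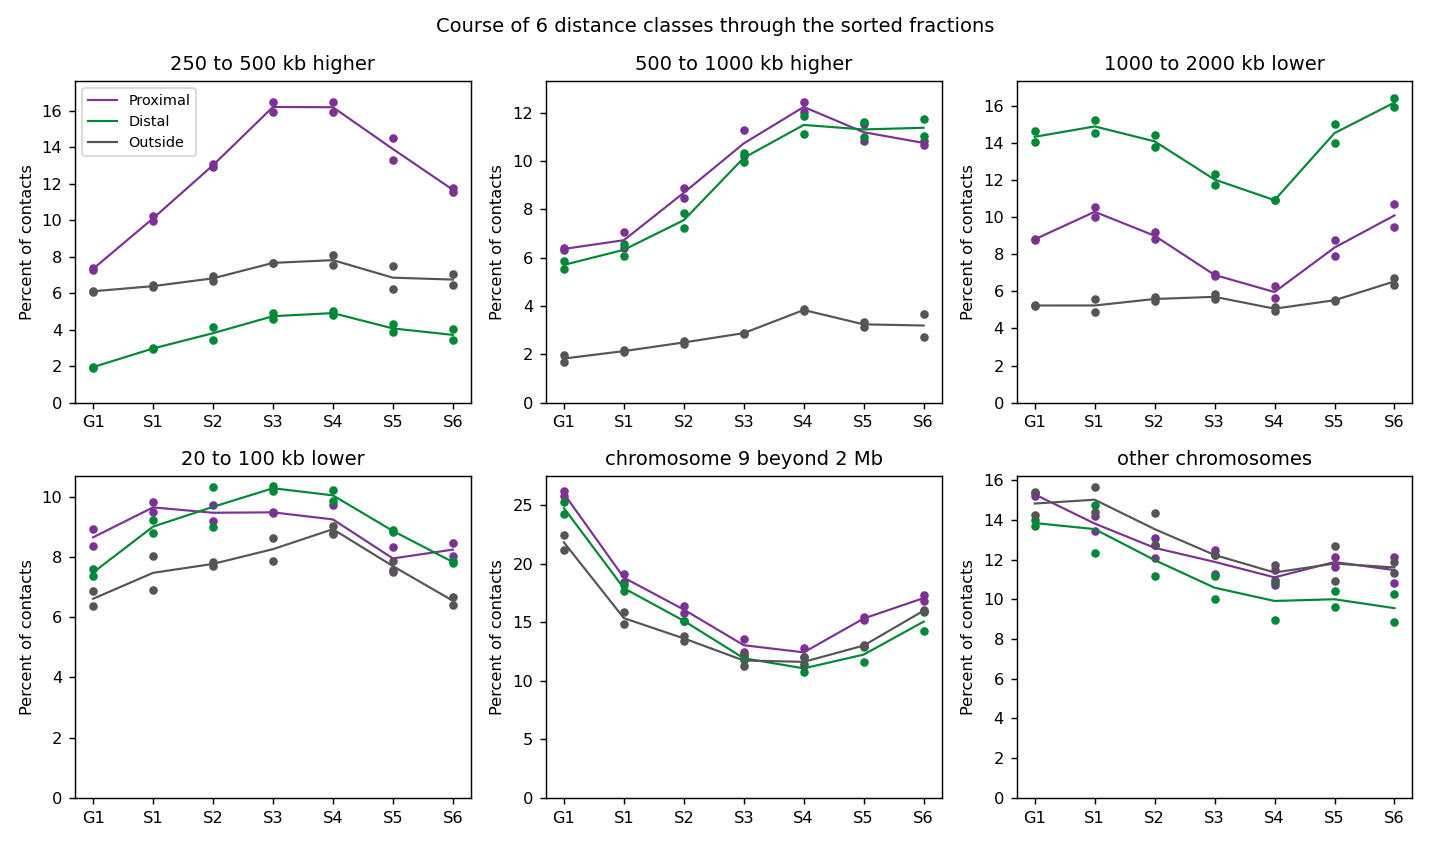
Percent of contacts (vertical axis from 0) in 6 distance classes along the sorted fractions G1 and S1 to S6, with 1 point per library and lines through the means, coloured by primer. On the higher side between 250 and 500 kb the Proximal share in S6 (11.6% and 11.8%) lies between G1 and S4, at 500 to 1000 kb the Distal share in S6 (11.7% and 11.03%) is level with S4, and contacts with other chromosomes stay low in S6 for all primers.

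Long-range contacts on chromosome 9 were still short of G1 in S6. Beyond 2 Mb, the Distal primer had 14.3% and 15.9% of its contacts in S6, against 24.3% and 25.3% in G1, a fold of 0.608 (95% interval 0.549 to 0.673, limma adjusted p = 4.53e-06). The Proximal primer had 16.8% and 17.4% in S6, against 26.3% and 25.8% in G1, a fold of 0.657 (95% interval 0.602 to 0.716, limma adjusted p = 5.28e-06). The Outside primer had 15.9% and 16.1% in S6, against 22.5% and 21.2% in G1, a fold of 0.733 (95% interval 0.667 to 0.805, limma adjusted p = 3.8e-05). The S6 deficits were 70.8%, 65.8% and 57.2% of the S4 deficits. S6 was above S4 by 0.44, 0.46 and 0.46 in log2 units for Distal, Proximal and Outside (limma adjusted p = 0.000227, 8.2e-05 and 6.74e-05), so the deficit was partial.

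The deficit was deeper at the greater distances. More than 10 Mb away on the lower side the fold over G1 was 0.43 for Distal, 0.563 for Proximal and 0.578 for Outside, and on the higher side it was 0.458, 0.521 and 0.594. The smallest of these was the Distal class on the lower side, with 2.72% and 3.10% in S6 against 6.55% and 6.97% in G1 (limma adjusted p = 7.5e-07). Between 2 and 10 Mb the folds were nearer to 1. On the lower side they were 0.808 for Distal and 0.688 for Proximal, both past the threshold, and 0.917 for Outside (95% interval 0.807 to 1.04, not past it). On the higher side they were 0.572 for Distal, 0.817 for Proximal (95% interval 0.669 to 0.999, limma adjusted p = 0.071) and 0.822 for Outside (limma adjusted p = 0.00346, but 0.0602 without G1 replicate 1). In blocks of 10 Mb along chromosome 9 with at least 100 contacts beyond 2 Mb in S6 and G1 together, a minimum set after the values were seen, both S6 libraries were below both G1 libraries in 10 of 10 blocks for each primer. The ratio of S6 to G1 in these blocks ran from 0.34 to 0.802 for Distal, 0.377 to 0.824 for Proximal and 0.458 to 0.917 for Outside, and no test was made of single blocks. In the 4 sparser blocks of each primer the ratio was below 1 in 3 and above 1 in the fourth, at 9.75 for Proximal (21 contacts in S6, all in replicate 2, against 2 in G1), 1.67 for Distal (12 against 7) and 1.18 for Outside (11 against 9).

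Contacts with other chromosomes were also below G1, with no detected change from S4 to S6. The Distal share was 10.3% and 8.85% in S6, against 13.7% and 14.01% in G1, a fold of 0.688 (95% interval 0.574 to 0.826, limma adjusted p = 0.00214). The Proximal share was 12.1% and 10.8% in S6, against 15.4% and 15.2% in G1, a fold of 0.749 (95% interval 0.667 to 0.842, limma adjusted p = 0.000624). The Outside share was 11.3% and 11.9% in S6, against 14.2% and 15.4% in G1, a fold of 0.783 (95% interval 0.69 to 0.889, limma adjusted p = 0.00223). The log2 change of S6 over S4 was -0.05, 0.05 and 0.03 (limma adjusted p = 0.718, 0.61 and 0.723), and the S6 deficits were 109%, 91.2% and 92.7% of the S4 deficits.

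Each chromosome's share of the contacts with other chromosomes was tested for chromosomes 1 to 22 and X without 9. That share sets the fall in all such contacts aside, so it cannot show which chromosomes lost contacts. Of 66 tests over the 3 primers, 0 passed in limma (0.0%), with 3 Proximal, 1 Distal and 1 Outside at an unadjusted p below 0.05. The smallest adjusted p was 0.148, for chromosome 22 seen from Distal, with 1.098% and 1.22% of those contacts in S6 against 1.84% and 2.30% in G1. A chromosome had 15 to 194 contacts in a library, so small changes in these shares were not detectable at this depth. With all contacts outside 20 kb as the denominator, which includes that fall, some Distal chromosomes and a Proximal one passed. Their number is given further on.

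Shares of 1 total are tied to each other, and fewer far contacts raise every local share. With local contacts as the denominator, S6 differed from G1 in 3 of 10 Proximal classes (30.0%), 6 of 10 Distal classes (60.0%) and 4 of 10 Outside classes (40.0%), with 6 higher (20% of 30) and 7 lower (23.3%) in all. The gains on the higher side from 250 kb outwards passed here too, whereas the Proximal gain at 100 to 250 kb did not (log2 change 0.04, limma adjusted p = 0.706). At 500 kb to 1 Mb the fold was 1.62 for Distal, 1.39 for Proximal and 1.52 for Outside (limma adjusted p = 6.19e-06, 8.73e-05 and 1.73e-08), at 250 to 500 kb it was 1.55 for Distal and 1.31 for Proximal, and at 1 to 2 Mb it was 1.31 for Outside. For Outside limma gave all 10 classes 1 common SE of 0.083, so its p-values here do not reflect the spread of each class. At 500 kb to 1 Mb its libraries held 5.06% and 3.76% in S6, against 3.11% and 2.66% in G1. The gains on the lower side did not pass, and the 1 to 2 Mb class there turned to a log2 change of -0.12 for Distal and -0.09 for Proximal (limma adjusted p = 0.0864 and 0.396). Of the 6 classes at 20 to 100 kb, near 1-fold above, 5 were called lower relative to local contacts, at 0.853-fold and 0.827-fold for Distal on the lower and the higher side, 0.867-fold and 0.847-fold for Outside, and 0.783-fold on the lower side for Proximal. The other 2 lower calls were Distal, at 0.836-fold between 100 and 250 kb above the viewpoint (limma adjusted p = 0.00506) and 0.80-fold between 500 kb and 1 Mb below it (limma adjusted p = 0.000608).

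Bins of 20 kb, counted relative to local contacts, placed the higher-side gain. S6 differed from G1 in 20 of 165 Distal bins (12.1%, with 9.70% higher and 2.42% lower), 2 of 154 Proximal bins (1.30%, both higher) and 5 of 163 Outside bins (3.07%, with 2.45% higher and 0.613% lower) in limma. At an unadjusted p below 0.05 there were 41, 20 and 17 bins. Scaled to all contacts outside 20 kb instead, which moved the median log2 change by 0.28, 0.26 and 0.18, the calls were 30 higher (18.2%) and 0 lower for Distal, 12 higher (7.79%) and 0 lower for Proximal, and 7 higher (4.29%) and 0 lower for Outside. Single libraries moved these counts. The Distal count was 6 without S6 replicate 1, 11 without S6 replicate 2, and 12 or 13 without the first or the second G1 library. The Proximal count was 0 without S6 replicate 1 and 1 without G1 replicate 2, and the Outside count was 0 without S6 replicate 1, 2 without G1 replicate 1 and 3 without G1 replicate 2. In 50 kb bins the counts were 16 of 73 Distal (21.9%, with 13.7% higher and 8.22% lower), 8 of 70 Proximal (11.4%, with 7.14% higher and 4.29% lower) and 6 of 79 Outside (7.59%, with 6.33% higher and 1.27% lower). Under the other scaling they were 21 Distal (28.8%, all higher), 12 Proximal (17.1%, with 15.7% higher and 1.43% lower) and 10 Outside (12.7%, all higher). For Distal, Proximal and Outside the 50 kb counts were 6, 2 and 1 without G1 replicate 2. They were 17, 4 and 2 without G1 replicate 1. Leaving out S6 replicate 1 gave 12, 8 and 0, and leaving out S6 replicate 2 gave 13, 4 and 6.

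**Figure D4:**
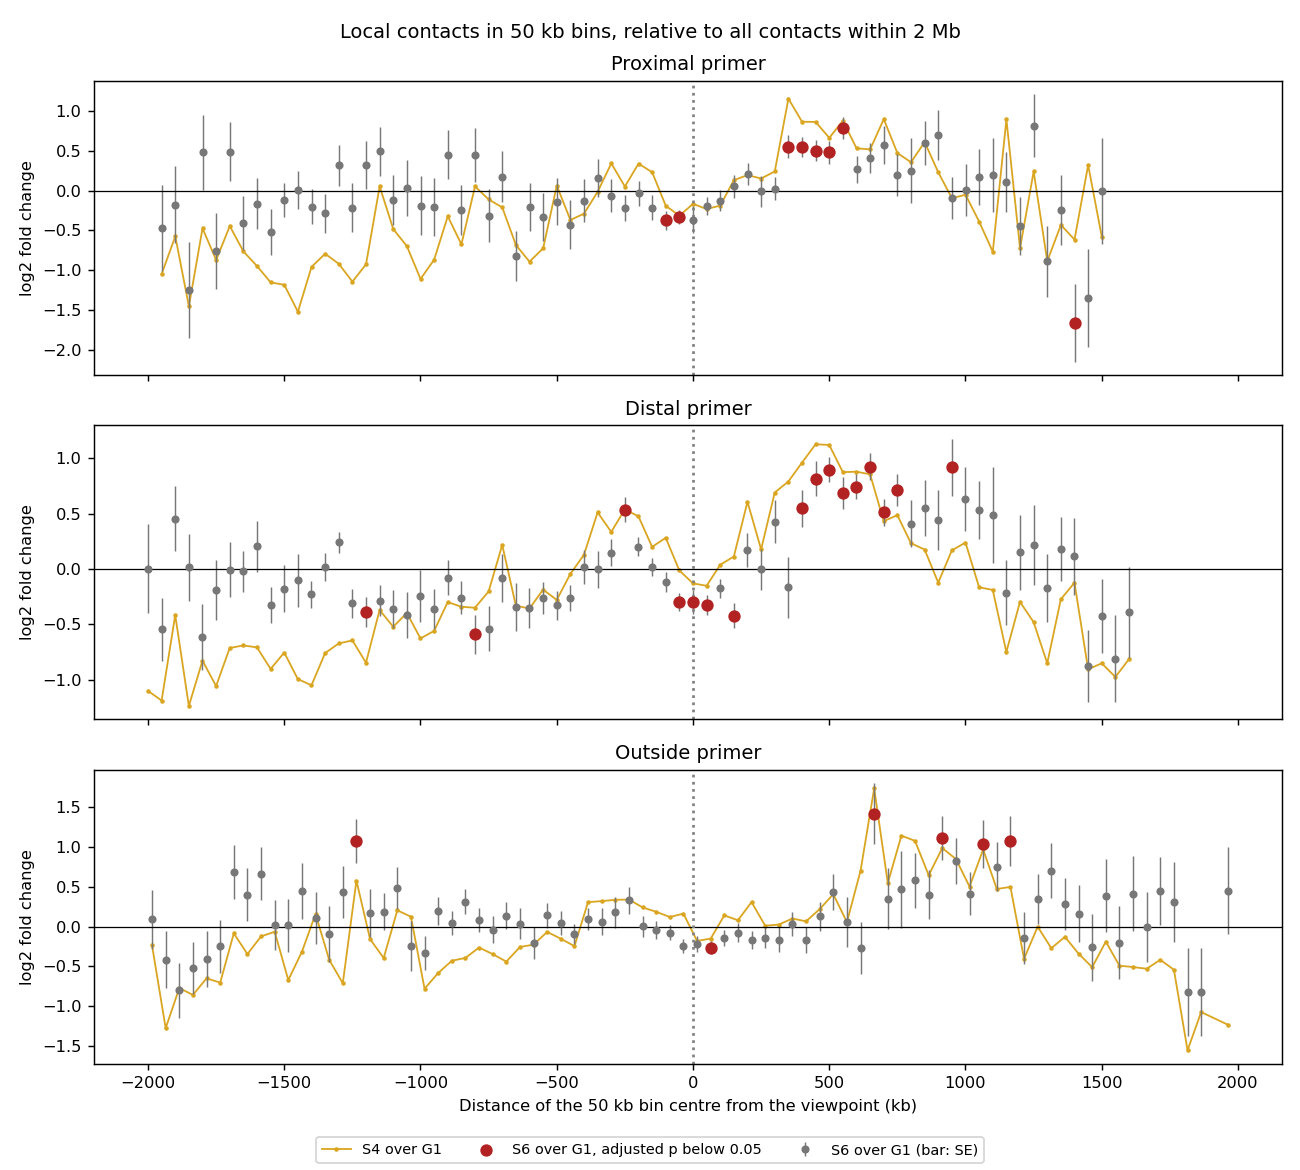
Log2 fold change over G1 in 50 kb bins (vertical axis) against the distance of the bin centre from the viewpoint in kb (horizontal axis), for S6 (points with standard errors, large red points at an adjusted p below 0.05) and S4 (line), with counts relative to local contacts. For Distal the called S6 bins on the higher side lie below the S4 line from 400 to 600 kb and above it from 650 to 750 kb. On the far lower side S4 lies below 0 for Proximal and Distal, where most S6 points lie nearer to 0.

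Distal calls were concentrated in 1 stretch of 260 kb, from 111940001 to 112200000 on chromosome 9, 415 to 675 kb above the Distal viewpoint, where 11 of 13 bins were higher in S6. The strongest bin, starting at 112000001, had 88.6 and 89.2 per 10000 local contacts in S6, against 28.6 and 42.1 in G1 (log2 change 1.33 ± 0.21 SE, limma adjusted p = 1.08e-05). The whole stretch held 1163 and 1037 per 10000 in S6, against 643 and 605 in G1. In 12 of the 13 bins both S6 libraries lay above both G1 libraries, where 25.5% of all Distal bins did so. The stretch was drawn from these Distal calls, so its Distal counts are a description.

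The libraries of the other primers, which did not define that stretch, were also higher there in S6. The Proximal primer had 1829 and 1994 per 10000 local contacts over the stretch in S6, against 1356 and 1291 in G1. Its 13 bins had log2 changes from 0.14 to 1.00 with a median of 0.49, against a median of -0.07 over all 154 Proximal bins, and both S6 libraries lay above both G1 libraries in 11 of the 13 (22.7% of all bins). The Outside primer had 344 and 258 per 10000 in S6, against 179 and 172 in G1. Its 13 bins had a median log2 change of 0.59, against 0.08 over all bins, with 12 above 0 and the S6 libraries above both G1 libraries in 8 (28.8% of all bins). The median log2 change of the 13 bins in S4 was 0.92 for Distal, 0.89 for Proximal and 0.69 for Outside, and in S6 it was 0.75, 0.49 and 0.59.

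**Figure D5:**
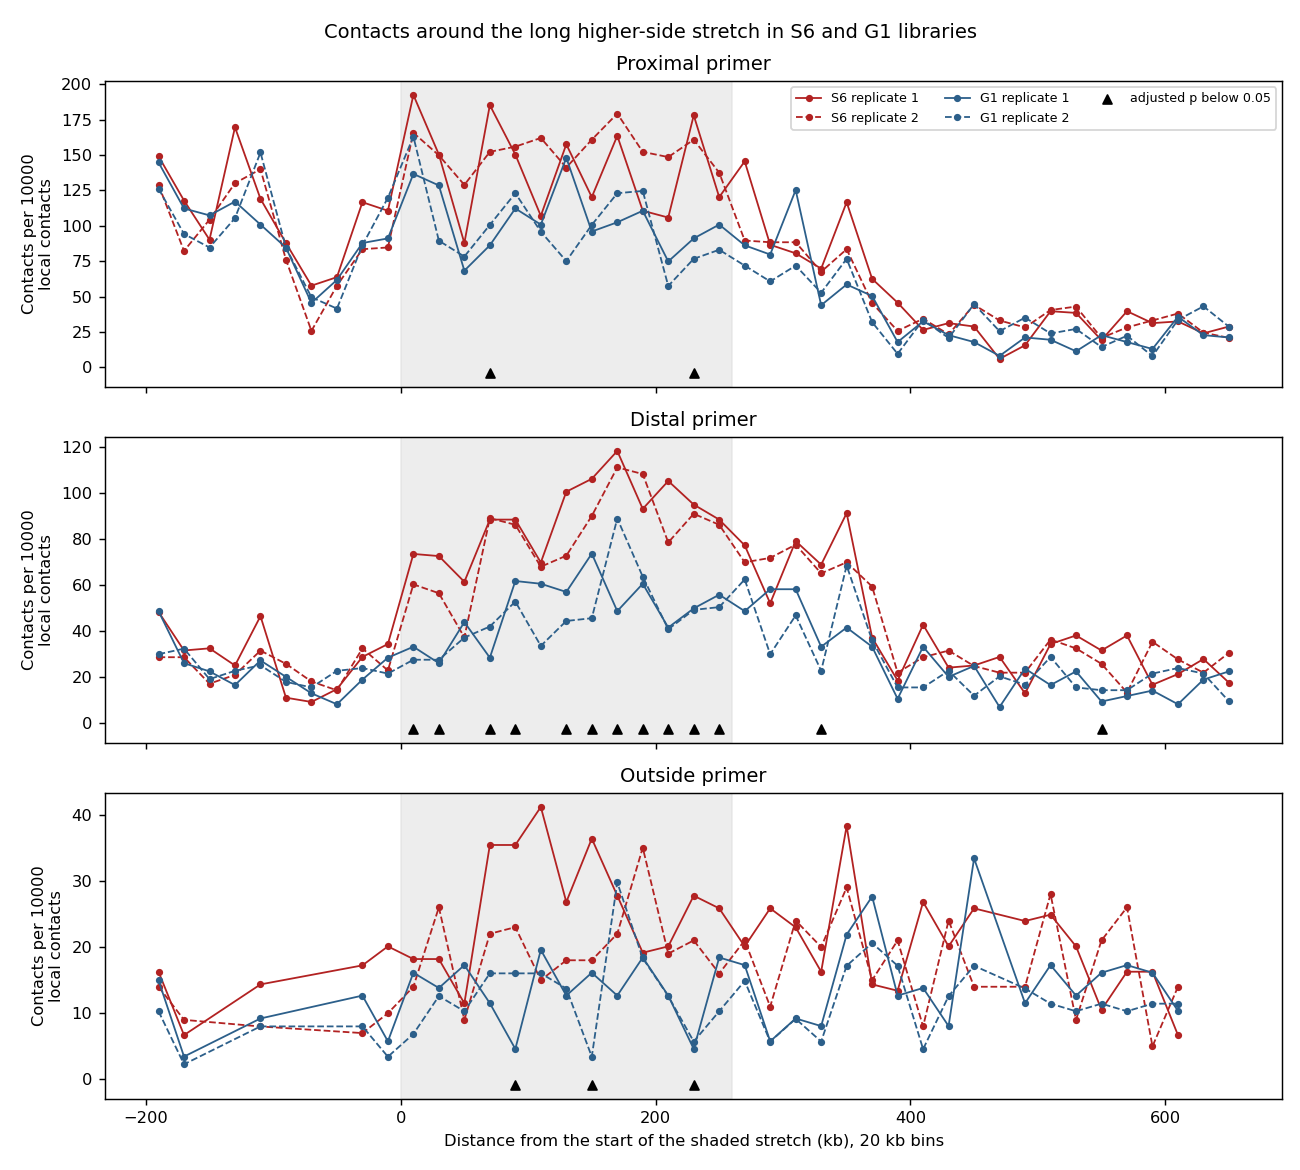
Contacts per 10000 local contacts in 20 kb bins (vertical axis) by distance from the start of the 260 kb stretch in kb (horizontal axis, stretch shaded), for both S6 and both G1 libraries of each primer. Triangles mark bins with an adjusted p below 0.05. For Distal the S6 lines lie above the G1 lines in 12 of 13 shaded bins, and in the Outside panel S6 replicate 1 is the higher S6 library at most of the called bins.

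The 2 bins called for Proximal both lay in that stretch. The bin at 112160001 had 178 and 161 per 10000 in S6, against 91.1 and 76.7 in G1 (log2 change 1.00 ± 0.20 SE, limma adjusted p = 0.00478). The bin at 112000001 had 185 and 152 in S6, against 86.2 and 101 in G1 (log2 change 0.84 ± 0.18 SE, limma adjusted p = 0.00565). Neither pair of groups overlapped, but the call at 112160001 was lost without G1 replicate 2 (limma adjusted p = 0.0946) or S6 replicate 1 (limma adjusted p = 0.0663), and that at 112000001 without G1 replicate 1 (limma adjusted p = 0.0682) or S6 replicate 1 (limma adjusted p = 0.131).

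Of the 4 higher Outside bins, 3 were in the stretch as well. The bin at 112160001 had 27.8 and 21.04 per 10000 in S6, against 4.61 and 5.73 in G1, from 29 and 21 contacts in S6 and 4 and 5 in G1 (log2 change 2.05 ± 0.48 SE, limma adjusted p = 0.00332, 0.222 without S6 replicate 1). The bins at 112080001 and 112020001 had log2 changes of 1.62 and 1.61 (limma adjusted p = 0.0353 and 0.019). In the first of them the lower S6 library, at 18.0 per 10000, was close to the higher G1 library, at 16.1. It lost its call without G1 replicate 2 (limma adjusted p = 0.837) or S6 replicate 1 (limma adjusted p = 0.728), and the bin at 112020001 without G1 replicate 1 (limma adjusted p = 0.536) or S6 replicate 1 (limma adjusted p = 0.535). The fourth bin, at 109880001 on the lower side, had 25.9 and 28.05 in S6, against 3.46 and 13.8 in G1 (log2 change 1.79, limma adjusted p = 0.019). Its call was lost without G1 replicate 1 (limma adjusted p = 0.536), S6 replicate 1 (limma adjusted p = 0.222) or S6 replicate 2 (limma adjusted p = 0.102).

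Distal had 4 further higher regions outside the stretch. The bin at 112260001, 735 to 755 kb above the viewpoint, had 69.0 and 65.2 per 10000 in S6, against 33.3 and 22.9 in G1 (log2 change 1.25 ± 0.26 SE, limma adjusted p = 0.000492). S4 held 47.2 and 58.4 there, below both S6 libraries, and the call held without any 1 of the 4 libraries. The bin at 112480001 had 31.7 and 25.9 in S6, against 9.52 and 14.4 in G1 (log2 change 1.22, limma adjusted p = 0.0332), with S4 at 15.7 and 13.7. On the lower side, the bin at 110200001 had 154 and 140 in S6, against 100 and 99.9 in G1 (log2 change 0.55, limma adjusted p = 0.0311), and S4 had 65.7 and 68.4, so S6 exceeded G1 where S4 was below it. The region from 111240001 to 111300000 had a log2 change of 0.54 in its strongest bin (limma adjusted p = 0.0427). These last 3 calls were fragile, with an adjusted p of 0.0708 to 0.243 for 112480001 without G1 replicate 1 or either S6 library, 0.0688 to 0.206 for 110200001 without any 1 library, and 0.0622 to 0.435 for 111240001 without G1 replicate 1 or either S6 library.

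The bins that were lower in S6 lost their calls when contacts were scaled to the whole library. For Distal they started at 110720001, 110240001, 111620001 and 111480001, with log2 changes of -0.84, -0.70, -0.43 and -0.36 (limma adjusted p = 0.0191, 0.0427, 0.0391 and 0.0311). Under the other scaling the same changes were -0.55, -0.41, -0.13 and -0.06 (limma adjusted p = 0.127, 0.269, 0.597 and 0.792). The Outside bin at 111160001 changed by -0.39 (limma adjusted p = 0.0353) and by -0.20 under the other scaling (limma adjusted p = 0.411). The nearest to a viewpoint was the Distal bin at 111480001, at -45.0 to -25.0 kb from it, with 266 and 335 per 10000 in S6 against 374 and 392 in G1. Leaving out single libraries also ended each of these calls, with p from 0.0632 to 0.535. The 50 kb bin at 113000001, seen from Proximal, was the 1 lower bin called under both scalings, with 10.8 and 12.3 per 10000 in S6 against 47.2 and 36.7 in G1 (log2 change -1.66, limma adjusted p = 0.0219). It was picked out after its values were seen and was not recomputed with single libraries left out.

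Bins called at mid S were followed to S6. In S4 against G1, 20 kb bins passed in 46 of 165 Distal bins (27.9%), 26 of 154 Proximal bins (16.9%) and 1 of 163 Outside bins (0.613%). The 21 Distal bins that were higher in S4 (12.7%) had a median log2 change over G1 of 0.80 in S4 and 0.68 in S6, and the 25 that were lower (15.2%) had a median of -0.96 in S4 and -0.22 in S6. The 11 Proximal bins that were higher in S4 (7.14%) had medians of 0.95 in S4 and 0.49 in S6, and the 15 that were lower (9.74%) had medians of -1.60 in S4 and -0.31 in S6. Over all bins the medians in S4 and S6 were -0.15 and -0.02 for Distal and -0.13 and -0.07 for Proximal. These bins were chosen on the G1 libraries that S6 is also set against, so the values are a description with no test. The Distal count of 46 was 30 without G1 replicate 2, and 28 or 19 without the first or the second S4 library, the Proximal count of 26 was 16 without either G1 library and 9 without S4 replicate 1, and the Outside count of 1 was 0 without S4 replicate 2, 3 without G1 replicate 2 and 2 without either remaining library.

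In 20 kb bins, the direct test of S6 against S4 called rises mostly on the lower side. It called 13 of 165 Distal bins (7.88%, with 6.06% higher and 1.82% lower), 7 of 154 Proximal bins (4.55%, all higher) and 8 of 163 Outside bins (4.91%, with 3.07% higher and 1.84% lower). The 7 Proximal bins fell in 3 regions between 110100001 and 110380000, at -1525 to -1245 kb from the viewpoint. The strongest bin of the second, at 110160001, had 55.3 and 60.1 per 10000 in S6, against 10.3 and 23.5 in S4 (log2 change 1.79 ± 0.39 SE, limma adjusted p = 0.00633), and G1 had 81.3 and 47.9. Seen from Distal, 4 of 5 higher regions lay between 109980001 and 110320000, with the smallest p at 110200001 (log2 change 1.12, limma adjusted p = 9.31e-06), which was the 1 named bin called without any 1 library. The fifth, at 112560001, began 1035 kb above the viewpoint (log2 change 1.235, limma adjusted p = 0.0477). Outside had 5 higher bins between 109460001 and 110440000, with log2 changes of 0.80 to 2.41. The S6 change over G1 in the strongest bin of these 13 higher regions ran from -0.31 to 0.74, and its 95% interval held 0 in all but the Distal one at 110200001. The lower regions lay at 112040001 (log2 change -0.67) and 111400001 to 111440000 (-0.48) for Distal. For Outside they lay at 111040001 to 111100000 and 111320001 (-0.64 each). Rises over S4 were not confined to the lower side. As shares of local contacts, the higher-side class at 1 to 2 Mb rose by 0.62 for Distal and 0.49 for Outside (limma adjusted p = 0.000408 and 1.61e-06). The Proximal class there rose by 0.19 and did not pass (limma adjusted p = 0.0979). The Proximal count of 7 was 0 without S6 replicate 1, 1 without S6 replicate 2, 2 without S4 replicate 1 and 4 without S4 replicate 2. The Distal count was 5 without S4 replicate 1 and 8 without S4 replicate 2, and the Outside count was 0 without S4 replicate 1 or S6 replicate 1 and 5 without S4 replicate 2.

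The S6 change was compared between primers in 50 kb bins that 2 primers shared. Distal and Outside differed in 5 of 68 bins (7.35%), Proximal and Outside in 2 of 65 (3.08%), and Proximal and Distal in 0 of 68 (0.0%), where limma gave 5 at an unadjusted p below 0.05 and a smallest adjusted p of 0.377. The bin at 111750001, just above the Proximal viewpoint, had 35.5 and 26.04 per 10000 in S6 seen from Outside, against 11.5 and 8.02 in G1. Seen from Distal it had 89.5 and 64.3 in S6, against 74.99 and 77.0 in G1. The log2 change was -0.0023 for Distal and 1.41 for Outside, a difference of -1.42 ± 0.38 SE (limma adjusted p = 0.0166). The difference from Outside was -1.36 for Proximal (limma adjusted p = 0.0157). Each of these 7 calls was lost without at least 4 single libraries, with p up to 0.394. For Distal minus Outside at 111750001 the p was 0.0587 without Distal G1 replicate 2, 0.111 without Distal S6 replicate 2, 0.0873 without Outside G1 replicate 2 and 0.0757 without Outside S6 replicate 1.

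The 50 kb bin with the largest S4 gain was the same for the inner primers, at 111950001 inside the 260 kb stretch. Each such bin was picked on the G1 libraries that S6 is also set against. That choice favours low G1 and high S4 values, so the changes and p-values below are a description. From Distal it had 169 and 132 per 10000 in S6, against 90.5 and 78.2 in G1 (log2 change 0.82 ± 0.16 SE, limma adjusted p = 0.000435), while the S4 change was 1.13. From Proximal it had 335 and 325 in S6, against 224 and 225 in G1 (log2 change 0.55 ± 0.14 SE, limma adjusted p = 0.00982), while the S4 change was 1.15. The Proximal call was lost without G1 replicate 1 (limma adjusted p = 0.0675) or G1 replicate 2 (limma adjusted p = 0.0933), whereas the Distal call held without any 1 library. For Outside the bin of largest S4 gain was the one at 111750001 above, with an S4 change of 1.73 and an S6 call (limma adjusted p = 0.00637) that was lost without G1 replicate 2 (limma adjusted p = 0.183) or S6 replicate 1 (limma adjusted p = 0.214). The Outside libraries held 37 and 26 contacts in that bin in S6, and 10 and 7 in G1.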

How the data were processed

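Contacts of 3 viewpoints were measured by primer extension on ligated DNA, with 2 libraries per primer and fraction. Per the labels' protocols, fragments were joined to an adapter with random molecular barcodes. Cutadapt, bedtools and hg19 come from the submitters' processing notes. The aligner, the use of barcodes and the step that gave every library 16350 lines were not given in the sources used here. Each line of the deposited files is 1 position, and the authors' files hold no values beside it.

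Lines were counted in 20 and 50 kb bins on chromosome 9, at 20 kb to 2 Mb from the viewpoint, with a mean of at least 10 lines, and scaled to local lines. limma with eBayes was fitted to log2(scaled lines + pseudocount), with a trend, in 1 model of 14 libraries per primer. The lowest scaled value above 0 served as pseudocount (1.06 Distal, 1.16 Proximal and 0.944 Outside in 20 kb bins), so changes of low bins are understated. Shares were fitted as log2 percent without a trend. A call was a Benjamini-Hochberg adjusted p below 0.05. Counts were not given to a count model, since a position may be listed repeatedly. Regions are called 20 kb bins with 1 sign in both replicates, merged when at most 1 bin apart, up to 10 per direction for S6 against G1 and 6 for S6 against S4, described by their strongest bin. Same-numbered S6 and G1 libraries had correlations of deviations of -0.06 (Distal), 0.20 (Proximal) and 0.11 (Outside), so numbers were not taken to pair libraries. Models were also run on simulated counts, drawn independently and without repeated positions. Those runs do not give the rate of false calls in these data. Alternatives covered scaling, filter, pseudocount, trend, repeated positions, bins, the excluded zone, the replicate block and single libraries. The groups, bins and classes were chosen with earlier results of these data known. The tools were Python 3.11.15 with matplotlib 3.10.9, scipy 1.17.1, pandas 2.3.3 and numpy 2.4.6, and R 4.3.3 with limma 3.58.1 and version 1.17.8 of data.table.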

Additional observations from a re-analysis of the deposited data

Results flagged for a closer look

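The change of S6 over G1 differed between primers by a direct test in 7 comparisons of shared 50 kb bins. These covered 5 different bins, since 109850001 and 111750001 each passed for 2 pairs of primers. The calls were 5 of 68 bins for Distal minus Outside (7.35%), 2 of 65 for Proximal minus Outside (3.08%) and 0 of 68 for Proximal minus Distal. Each of the 7 calls was lost when some single libraries were left out. Proximal minus Outside was -1.83 at 109850001 and -1.36 at 111750001 on the log2 scale. Distal minus Outside was -1.09 at 109850001, -0.68 at 110700001, 0.61 at 111250001, -0.61 at 111600001 and -1.42 at 111750001. In the bin at 109850001 the Outside primer had 76.7 and 72.1 per 10000 local contacts in S6, against 33.4 and 34.4 in G1, and the Distal primer had 90.5 and 108 in S6, against 95.2 and 106 in G1. The Proximal S6 libraries of that bin were far apart, at 60.1 and 18.4, with 53.7 and 63.9 in G1. At 111250001 Distal had 308 and 311 in S6, against 186 and 244 in G1, and Outside had 371 and 341 in S6, against 385 and 365 in G1. The cause of these differences was not tested.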

How the results depend on the processing

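Of 489 recomputed class values for S6 against G1, 422 kept their direction and their side of the threshold, 23 no longer passed, 15 came to pass and 29 changed sign. In 5 of the 29 one of the 2 values passed, and all 5 arose with local contacts as the denominator, which removes far contacts by construction: -0.0889 for Proximal at 1 to 2 Mb on the lower side, and for Distal -0.23 and -0.27 at 20 to 100 kb (lower and higher side), -0.26 at 100 to 250 kb on the higher side and -0.12 at 1 to 2 Mb on the lower side. That denominator also turned 8 classes that passed in neither setting. For Proximal these were -0.17, -0.13 and -0.15 on the lower side (100 to 250, 250 to 500 and 500 to 1000 kb) and -0.18 at 20 to 100 kb and -0.18 at 1 to 2 Mb on the higher side. On the same side they were -0.0761 for Distal at 1 to 2 Mb, and -0.15 and -0.0502 for Outside at 100 to 250 and 250 to 500 kb. With each position once, 4 classes near 0 turned positive, to 0.00165 for Proximal at 20 to 100 kb lower, 0.0537 for Distal at 500 to 1000 kb lower, and 0.0821 and 0.0646 for Outside at 20 to 100 kb lower and higher. An excluded zone of 50 kb gave 0.0158 for Outside at 20 to 100 kb lower. For S6 against S4, 14 of 489 class values changed sign, none of them past the threshold in either setting. Local contacts gave 0.0364 for Proximal at 20 to 100 kb higher and 0.0532 for Distal at 500 to 1000 kb higher, and each position once gave 0.0663 for that Proximal class and -0.051 and -0.0553 for other chromosomes seen from Proximal and Outside. Class counts under that denominator were 6 Distal, 3 Proximal and 4 Outside for S6 against G1 (12, 10 and 12 before) and 6, 4 and 6 for S6 against S4 (10, 10 and 12 before). With all contacts as the denominator, 4 of 22 Distal chromosomes and 1 of 22 Proximal ones passed, against 0 before. That denominator includes the fall in all contacts with other chromosomes. These calls therefore do not show changes particular to those chromosomes.

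Counts of 20 kb bins in S6 against G1 were 20 Distal, 2 Proximal and 5 Outside. Without the trend they were 5, 0 and 0, and with only the 4 libraries compared 6, 1 and 0. The Proximal count was 12 when scaled to all contacts, 0 with each position once and 1 with 10 kb bins. The Outside count was 2 without the low filter, 0 with a mean of at least 20 lines, 1 with each position once, 3 with 10 kb bins and 1 with the replicate block. In 50 kb bins, Proximal gave 2 without the trend and 0 with 4 libraries, against 8, and Outside gave 3, 2 and, scaled to all contacts, 10, against 6. For S4 against G1, Proximal gave 17 without the trend against 26. Outside, with 1, gave 17 scaled to all contacts, 7 with 4 libraries, 2 with a pseudocount of 1, each position once or no trend, and 0 without the low filter, with at least 20 lines or with the replicate block. For S6 against S4, Proximal gave 3 with each position once and 2 with 4 libraries, against 7, Distal 6 without the trend, against 13, and Outside 4 without the trend and 2 with 4 libraries, against 8. Between primers, scaling to all contacts gave 1 for Proximal minus Outside and 3 for Distal minus Outside, which gave 2 with each position once. The cause of these moves was not tested.

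Leaving out 1 library at a time gave, for 20 kb bins, 6 to 13 Distal, 0 to 2 Proximal and 0 to 5 Outside calls for S6 against G1, 19 to 36, 9 to 22 and 0 to 3 for S4 against G1, and 5 to 10, 0 to 4 and 0 to 7 for S6 against S4. It gave 6 to 17, 2 to 8 and 0 to 6 for 50 kb bins, 10 to 12, 8 to 10 and 10 to 12 for classes against G1, and 10 to 12, 7 to 8 and 10 to 13 for classes against S4. It gave 0 to 4 for Distal minus Outside, 0 to 3 for Proximal minus Outside, 0 for Proximal minus Distal and 0 for chromosomes. The remaining sign changes came from leaving out 1 library, in classes that passed neither before nor after. Against G1 the log2 change then ran from -0.0217 to 0.279 for Proximal at 500 to 1000 kb lower and -0.0754 to 0.286 at 20 to 100 kb higher. For Distal it ran from -0.0672 to 0.0143 at 500 to 1000 kb lower, -0.0229 to 0.068 at 20 to 100 kb higher and -0.00945 to 0.0857 at 100 to 250 kb higher. For Outside it ran from -0.0669 to 0.0394 at 20 to 100 kb lower, -0.11 to 0.0155 at 20 to 100 kb higher and -0.00522 to 0.0976 at 100 to 250 kb higher. Against S4 it ran from -0.24 to 0.12 for Proximal at 20 to 100 kb higher and -0.0614 to 0.0322 for Distal at 500 to 1000 kb higher. For other chromosomes it ran from -0.0392 to 0.129 (Proximal), -0.188 to 0.0858 (Distal) and -0.0148 to 0.0791 (Outside).

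Correlations between same-numbered libraries ranged from -0.18 to 0.23 over 21 pairs of fractions per primer, so numbers were not taken as pairing, and the replicate block moved no other count of calls by over 1.5 times. Low bins limit Outside most, where called bins held as few as 3 contacts in a G1 library.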

Other observations

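Contacts of the viewpoints with each other did not all move the same way from G1 to S6, and in most directions the libraries overlapped. Within 20 kb of the Proximal viewpoint the Outside primer had 0.572% and 0.584% of its contacts in S6, against 0.372% and 0.407% in G1. Within 20 kb of the Distal viewpoint the Proximal primer had 1.91% and 1.94% in S6, against 2.38% and 2.32% in G1, so the contact between the 2 fountain viewpoints was lower in both S6 libraries from that primer. From Distal to Proximal the share was 1.96% and 2.07% in S6, against 2.02% and 1.75% in G1, where the groups overlap. No test was made of these values.

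The median distance of Distal local contacts on the higher side was 519 and 518 kb in S6, against 286 and 348 kb in G1. For Proximal it was 387 and 383 kb in S6, against 342 and 318 kb in G1, and for Outside 231 and 204 kb in S6, against 186 and 182 kb in G1. On the lower side the Distal median was 467 and 434 kb in S6, against 519 and 499 kb in G1, and the S4 libraries had 286 and 303 kb. The higher side held 38.9% and 36.6% of the Distal local contacts in S6, against 33.2% and 33.1% in G1.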
